A study of Rattus norvegicus with 4 samples.

Results

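The transcripts described here are those of 10 genes for inflammatory chemokines and cytokines: Ccl2, Ccl3, Ccl4, Ccl7, Cxcl1, Cxcl2, Tnf, Il1b, Il6 and Il1rn. They were chosen by name, and their probes were found by matching the transcript accession of each gene spot, without its version, to the RefSeq gene table of rat. The 10 genes had 11 probes, of 16581 named genes and 45598 probes on the array. All 4 samples were cultures of NR8383, an alveolar macrophage line that came from the lung lavage of a healthy rat and grows partly attached and partly floating. The cultures had 20 passages, were kept for 48 h after seeding, and then met NRCWE006, which is a multi-walled carbon nanotube, for 4 h at 1 cm2 of nanotube surface per cm2. They form 1 group with replicates 1 to 4. Cultures without nanotubes, which the study describes, were not analysed here. No effect of the nanotubes can therefore be read from any value.

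Chemokines are small secreted proteins that draw leukocytes along a gradient. The products of Ccl2 and Ccl7, which belong to the CC family, act mainly on monocytes, and those of Cxcl1 and Cxcl2 act on neutrophils. Tumour necrosis factor, interleukin 1 beta and interleukin 6 are cytokines that alveolar macrophages release on contact with microbes or particles. Il1rn encodes the interleukin 1 receptor antagonist, which occupies the receptor of interleukin 1 without signalling. Transcription of most of these genes is driven by NF-kB together with AP-1 or C/EBP factors.

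Each array had 58717 gene spots, of which 0 were saturated. Replicate 4 stood apart, with 656 non-uniform gene spots against 9 to 34 on the other arrays and a median negative control signal of 4.61 against 2.98 to 3.36. The number of probes well above background lay between 4252 and 6476 per array. Of the macrophage markers, 4 of 10 were well above background on all 4 arrays, among them Cd68, the lysozyme gene Lyz2, the transcription factor gene Spi1 and the Fc receptor gene Fcgr1a. Another 5 of the 10 were called on no array, among them Csf1r and Mrc1, for the receptors of colony-stimulating factor 1 and of mannose. The remaining 1 was called on replicate 4 alone. Of 23 markers of epithelium, fibroblasts, endothelium, lymphocytes and granulocytes, 0 were well above background on all arrays and 21 were called on no array.

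Ccl2, Ccl3, Ccl4, Tnf and Il1rn, 5 of the 10 genes, were well above background on all 4 arrays, and Ccl7, Cxcl1, Cxcl2, Il1b and Il6 were on none. Over all named genes measured on every array, 11.9% were so on all 4, as were 7.04% of all probes. The choice of the 10 genes was made with earlier results of these data known, so their share is a description. The same 5 genes were found when the call was the software's weaker test for a signal above background, when it was the 95th percentile of negative control spots, when 3 of 4 arrays were enough, and without any one replicate. With those looser calls the share of all named genes rose, to 23.4%, 22.4% and 15.6% in that order. Without any one replicate it was 11.9% to 14.8%. The signals below are the software's processed intensity after background subtraction, with no scaling between arrays. Signals of different probes depend on the probe and are not set against each other.

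**Figure D1:**
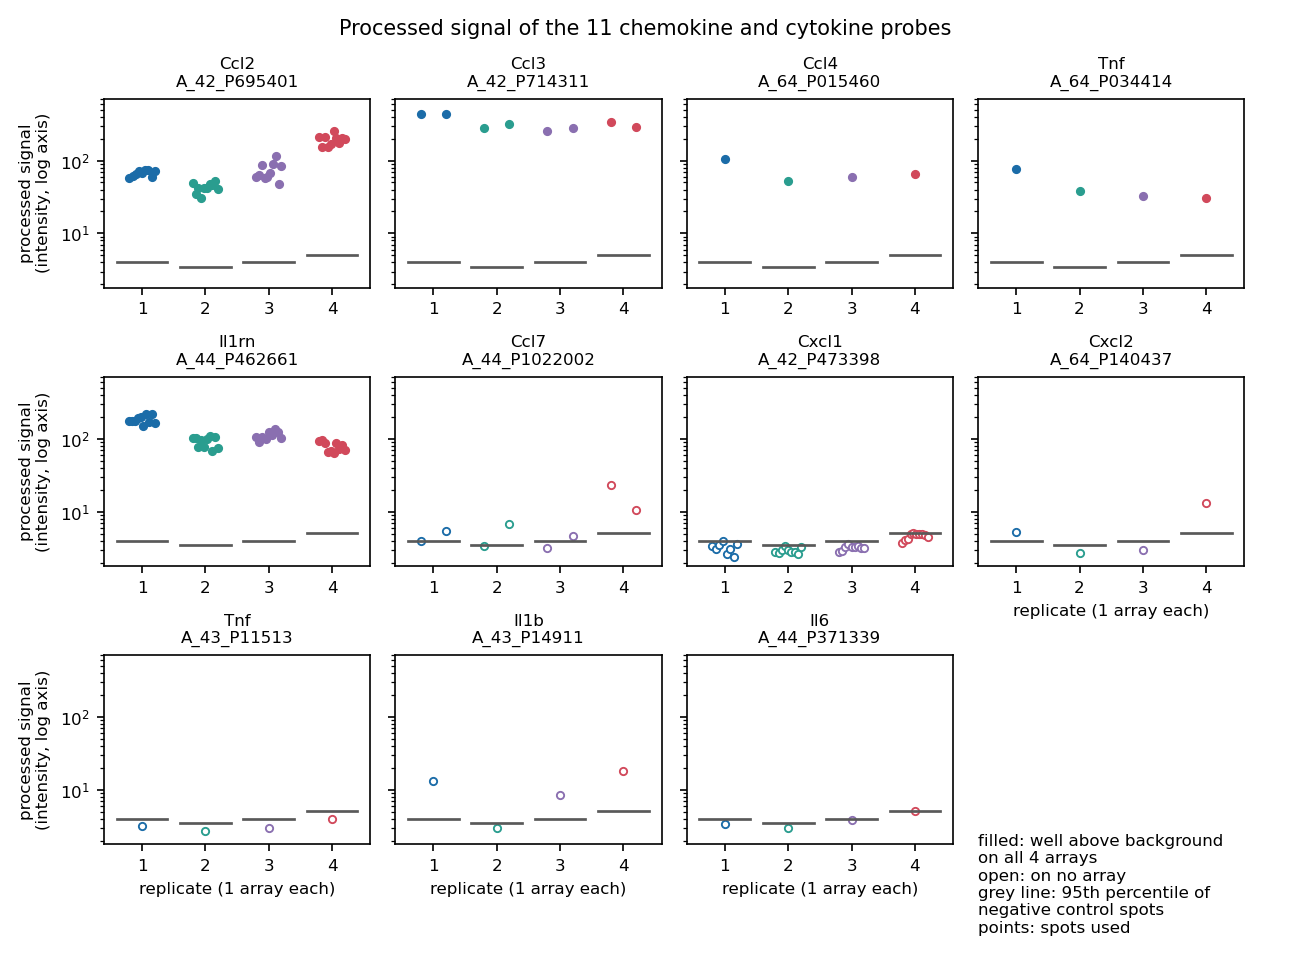
Processed signal (intensity, log axis) of each spot used for the 11 probes, by replicate; filled points belong to probes well above background on all 4 arrays, open points to probes that were so on none, and the grey line is the 95th percentile of negative control spots. The Ccl2 spots of replicate 4 lie above all Ccl2 spots of replicates 1 to 3, while the probe means of Il6, Cxcl1 and one of the Tnf probes stay under the grey line.

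Among the monocyte chemokine genes, Ccl2 encodes the main attractant of monocytes that carry the receptor CCR2. Its probe was printed 10 times on each array and gave mean signals of 66.3, 42.2, 70.6 and 189 in replicates 1 to 4. The spots of replicate 4 ranged from 152 to 252, above the highest spot of the other arrays, 115 in replicate 3. Levels were then taken as the log2 signal relative to the 75th percentile of detected probes of the same array. On this scale Ccl2 lay at -2.53, -2.73, -1.74 and -0.24, which is 2.10 higher in replicate 4 than the mean of the other arrays. Its level was -1.81 ± 1.13 (SD, n = 4), and -2.34 ± 0.53 (SD, n = 3) over replicates 1 to 3. In RNA of whole cultures, more cells with Ccl2 transcripts and more transcripts per cell cannot be told apart.

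The moderated F test of limma compared the 4 arrays over the spots of each probe with at least 3 usable spots per array. It called 81% of 1350 such probes, and 74.5% of the 709 called well above background on every array, so a call alone does not set a probe apart. Ccl2 passed with adjusted p = 3.26e-20, and its range between the highest and the lowest array was 2.50 on the log2 scale. A larger range was found for 21 of the 1350 probes and for 0 of the 709. With arrays scaled to the percentile over all gene probes, which shifts the median detected gene of replicate 4 by -1.64 against the other arrays, the Ccl2 range was 0.76 and 1197 of the 1350 probes had a larger one. Its error term comes from repeated spots on the same array. It compares 4 arrays, each with the RNA of 1 culture, and says nothing of conditions. Negative control signal and non-uniform spots were also highest on replicate 4. Of the 4 detected macrophage markers, Cd68, at -2.71 against -4.11 to -3.47, and Spi1, at -2.05 against -3.58 to -3.44, were also highest there. Fcgr1a was lowest there, at -0.91 against -0.69 to -0.55, and Lyz2, at 2.53, lay within the 2.37 to 2.64 of the other arrays. In addition, 2 markers of other cell types, Sftpb and Cdh5, were called well above background on that array alone. The part of these in the Ccl2 value was not tested.

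Ccl7, which encodes a chemokine close to Ccl2 in sequence, is the neighbour of Ccl2 in the rat gene table of assembly GRCr8, with 0 genes between them. Its probe, printed 2 times, failed the call on all 4 arrays. The mean signals were 4.67, 4.79, 3.87 and 15.8 in replicates 1 to 4. Replicate 4 was again the highest, and there both spots, 10.6 and 23.5, passed the software's weaker test for a signal above background. On each of the other arrays 1 of the 2 spots passed it. The 95th percentile of negative control spots in replicate 4 was 5.10, so the Ccl7 signal was 3.10 times that limit. Among the 36145 probes called on no array, 9.93% exceeded that limit by over 2-fold in replicate 4, against 3.01% to 7.40% in the other replicates.

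Ccl3 and Ccl4 encode the macrophage inflammatory proteins 1 alpha and 1 beta, chemokines of the CC family, and also neighbour each other with 0 genes between them. The Ccl3 probe gave mean signals of 428, 296, 266 and 315 over its 2 spots, and its level was 0.23 ± 0.19 (SD, n = 4). Levels in replicates 1 to 3 lay within 0.07 and 0.18, and replicate 4 stood at 0.50, so that the SD was 0.062 when the arrays were rescaled without replicate 4. Ccl4, measured by a single spot per array, gave 104, 52.5, 59.0 and 64.9. The software's own error for these spots was 10.9, 5.92, 6.57 and 7.67. The Ccl4 level was -2.02 ± 0.28 (SD, n = 4), lowest in replicate 2 at -2.42, and the SD was 0.11 when the arrays were rescaled without replicate 2. Relative to the shift of the median detected gene, replicate 4 lay above the mean of the other arrays by 0.44 for Ccl3 and 0.39 for Ccl4. A scaling by 1 factor per array cannot change these values. With another background correction they were 0.22 and 0.17.

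The neutrophil chemokine genes Cxcl1 and Cxcl2, neighbours with 0 genes between them, were both at background by the call. Cxcl1 was printed 10 times and gave mean signals of 3.17, 2.92, 3.21 and 4.57. None of its usable spots passed the weaker test on any array. The background-subtracted signals, a separate column of the software, averaged -2.22, -0.39, -1.05 and -4.66, all below 0. The processed signal of a spot that fails the weaker test is close to the software's error for that spot. On replicate 4 it lay within 5% of the error for 99.96% of such gene spots, the lowest share of the 4 arrays. For Cxcl1 the errors averaged 3.21, 2.95, 3.23 and 4.61, next to the signals themselves. Its F test (adjusted p = 3.49e-16, limma) is not read as a difference in RNA, and after quantile normalization it gave adjusted p = 0.822.

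Cxcl2, with 1 spot per array, gave 5.21, 2.70, 2.98 and 13.2. It passed the weaker test in replicates 1 and 4 and failed it in replicates 2 and 3. In replicate 4 it stood at 2.60 times the 95th percentile of negative control spots. Ccl7, Cxcl2 and Il1b were thus the 3 of 6 undetected probes that exceeded this limit by over 2-fold in replicate 4, against 1, 0 and 1 in replicates 1 to 3. The others, for Cxcl1, Il6 and one of the Tnf probes, exceeded the limit itself on no array. Of all 36145 probes called on no array, 9.93% exceeded it by over 2-fold in replicate 4. In replicates 1 to 3 the shares were 7.40%, 3.93% and 3.01%, so replicate 4 was the highest over all such probes too.

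Tnf encodes tumour necrosis factor, an early cytokine of activated macrophages. The probe A_64_P034414 gave single-spot signals of 77.6, 38.3, 32.6 and 30.5 in replicates 1 to 4, with software errors of 8.68, 5.08, 4.51 and 5.35. Replicate 1 was the highest, also after scaling, at -2.31 against -2.88, -2.86 and -2.87. With another background correction, replicate 4 was the highest instead. The level was -2.73 ± 0.28 (SD, n = 4), and the SD was 0.0082 when the arrays were rescaled without replicate 1. That spread is smaller than the software's errors for these single spots. The probe A_43_P11513, matched to the same accession, gave 3.23, 2.72, 2.97 and 3.99, and failed the weaker test on all 4 arrays. The 2 probes thus disagreed on whether Tnf was measurable.

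Il1b encodes interleukin 1 beta, which is made as a precursor and cut by caspase 1 before release. Its single spot gave 13.5, 3.02, 8.53 and 17.9. It failed the call on all 4 arrays but passed the weaker test in replicates 1, 3 and 4, at 3.37, 2.14 and 3.52 times the 95th percentile of negative control spots. Among the 36145 probes called on no array, 5.57% exceeded that percentile on 3 arrays and 2.46% on all 4. Il6, which encodes interleukin 6, gave 3.37, 3.01, 3.94 and 5.09, with errors of 3.39, 3.02, 3.95 and 5.12. It failed the weaker test on every array, so only a bound near the negative controls can be given.

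Il1rn was measured by a probe printed 10 times, and every usable spot was well above background. Mean signals were 183, 89.8, 110 and 77.9 in replicates 1 to 4. Its levels were -1.07, -1.64, -1.09 and -1.52, or -1.33 ± 0.29 (SD, n = 4), with replicates 1 and 3 above replicates 2 and 4. The F test over arrays gave adjusted p = 2.07e-07 in limma, for a range of 0.57 on the log2 scale. Of the 709 probes well above background, 178 had a larger range. The SD between single spots of an array was 0.18 to 0.25. The SD between arrays, 0.29, is over means of 9 or 10 spots, so these are unlike measures.

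**Figure D2:**
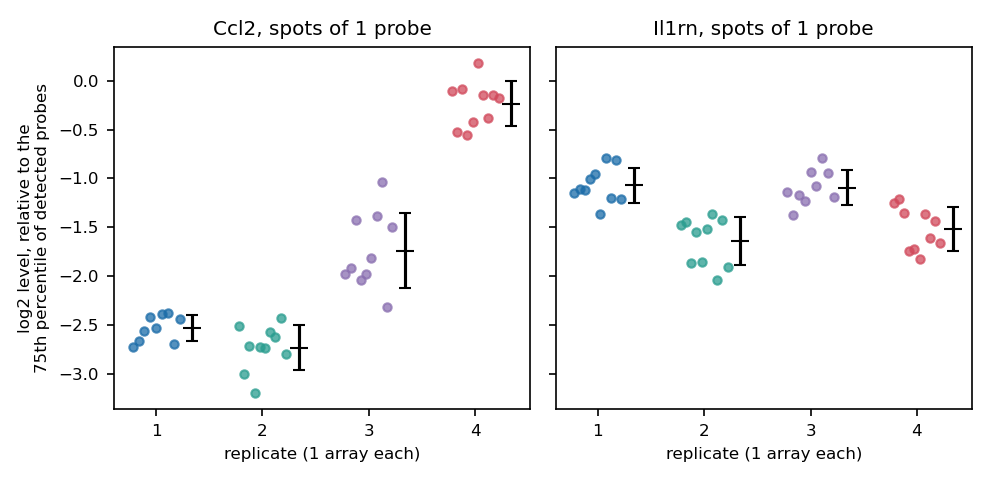
Log2 level of each usable spot of Ccl2 and Il1rn by replicate, relative to the 75th percentile of detected probes; black bars are mean ± SD over the spots of an array. The Ccl2 spots of replicate 4 lie above those of the other arrays, with a mean of -0.24, and the Il1rn means stay between -1.64 and -1.07.

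A ratio of 2 probes within an array does not depend on a scaling by 1 factor per array, though quantile normalization can move it. The log2 ratio of Ccl2 to Il1rn signal was -1.46, -1.09, -0.65 and 1.28 in replicates 1 to 4. Replicate 4 lay 2.35 above the mean of replicates 1 to 3, which was -1.07 ± 0.41 (SD, n = 3), a 5.09-fold shift. It lay above the other arrays also after quantile normalization and with another background correction, by 2.48 and 1.46. For Ccl3 the ratio to Il1rn was 1.23, 1.72, 1.27 and 2.02, a shift of 0.61 in replicate 4 against an SD of 0.27 over replicates 1 to 3. That of Ccl4 was -0.81, -0.78, -0.91 and -0.26, a shift of 0.57 against an SD of 0.07, with a single Ccl4 spot per array. That SD is smaller than the software's errors for these single spots, so it is no yardstick for the shift. With another background correction the shifts were 0.32 for Ccl3 and 0.27 for Ccl4. The shifts hold that of Il1rn itself. On the scale of detected probes, replicate 4 minus the mean of the others was -0.25 for Il1rn. It was 2.10 for Ccl2, 0.36 for Ccl3, 0.32 for Ccl4 and -0.19 for Tnf. The ratio of Tnf was -1.24, -1.23, -1.76 and -1.35, so that replicate 4 lay within the range of the others; its shift was 0.057, and -0.67 after quantile normalization. With 1 array against 3, an exact permutation test of such a shift cannot go below p = 0.25, and none was run.

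**Figure D3:**
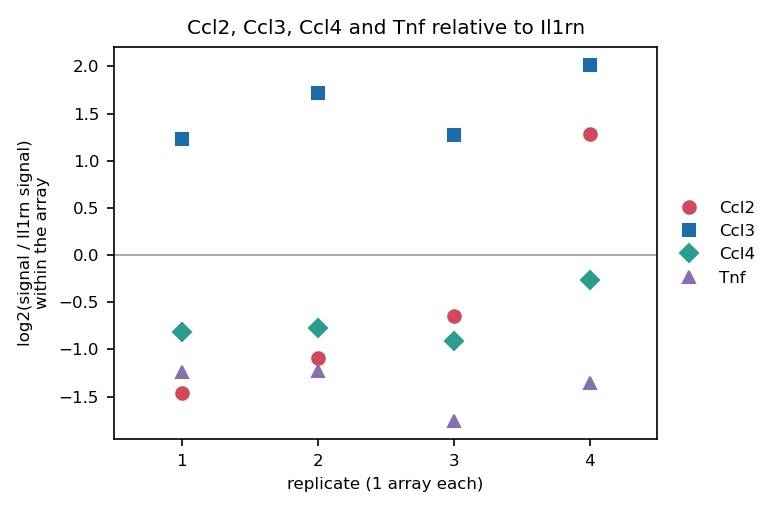
Log2 ratio of the Ccl2, Ccl3, Ccl4 and Tnf signal to the Il1rn signal of the same array, by replicate; only the change of one gene over arrays can be read, not the order of genes. Ccl2 moves from between -1.46 and -0.65 in replicates 1 to 3 to 1.28 in replicate 4.

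The SD over arrays of the 5 detected genes had a median of 0.281 on the log2 scale, against 0.241 over all 1946 detected named genes. Ccl2 had the 12th largest SD of those genes, while 34.2% to 61.5% of the genes had a smaller SD than Ccl3, Ccl4, Tnf or Il1rn. With the percentile over all gene probes, Ccl2 instead had the smallest SD of the 5, 0.40 against 0.61 to 0.93. The 3 detected genes whose levels followed Ccl2 most closely over the 4 arrays were Bsg, Osgep and Taok3. Bsg encodes the membrane glycoprotein basigin. Their centred levels differed from those of Ccl2 by a root mean square of 0.18, 0.22 and 0.22, against a median of 1.03 over 1941 genes. They were picked for the smallest difference, so lying under the median was fixed by the choice. Each of the 3 genes rested on a single spot per array, and Bsg gave signals of 58.0, 38.7, 51.5 and 128 in replicates 1 to 4.

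**Figure D4:**
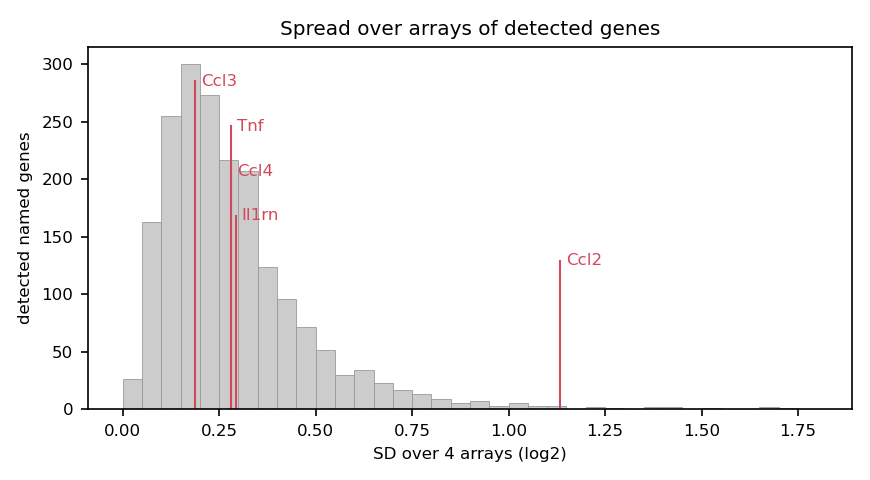
Histogram of the SD over 4 arrays (log2) of the 1946 detected named genes in bins of 0.05, with red lines at the 5 detected chemokine and cytokine genes. With arrays scaled to detected probes, Ccl2, at 1.13, lies in the right tail, and the others lie between 0.19 and 0.29, near the median of 0.241.

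Promoter sequence was matched in the RefSeq table of assembly GRCr8 for 7 of the 10 genes. Ccl2, Ccl3 and Ccl4 had no entry. The 250 bases before the start were searched on both strands for the NF-kB consensus, the AP-1 motif TGANTCA, the cyclic AMP response element TGACGTCA, the C/EBP motif TTGCNNAA and the TATA motif TATAAA. The NF-kB consensus was found before Il6, Ccl7, Cxcl1 and Cxcl2, 4 of 7, and in 6.33% of 33469 promoters of that length. The promoters of Cxcl1, Cxcl2 and Il6 are shown because they hold the motif while their transcripts were not well above background. That of Tnf is shown because 1 of its 2 probes was well above background and these letters are not in its window. They are written 5′ to 3′, with matches to the NF-kB consensus in capitals.
Cxcl1 (GRCr8, chr14:17479322-17479571, minus strand): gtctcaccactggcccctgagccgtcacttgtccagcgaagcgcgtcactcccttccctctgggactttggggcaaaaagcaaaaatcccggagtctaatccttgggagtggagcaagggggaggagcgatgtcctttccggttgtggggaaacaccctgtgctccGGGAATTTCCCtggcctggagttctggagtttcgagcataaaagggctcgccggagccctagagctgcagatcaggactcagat
Cxcl2 (GRCr8, chr14:17467256-17467505, minus strand): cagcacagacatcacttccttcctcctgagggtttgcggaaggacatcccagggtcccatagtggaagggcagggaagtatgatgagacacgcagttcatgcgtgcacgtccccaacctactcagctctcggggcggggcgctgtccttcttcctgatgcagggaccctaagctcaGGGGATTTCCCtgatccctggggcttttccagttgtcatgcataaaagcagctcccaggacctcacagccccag
Il6 (GRCr8, chr4:5894576-5894825, minus strand): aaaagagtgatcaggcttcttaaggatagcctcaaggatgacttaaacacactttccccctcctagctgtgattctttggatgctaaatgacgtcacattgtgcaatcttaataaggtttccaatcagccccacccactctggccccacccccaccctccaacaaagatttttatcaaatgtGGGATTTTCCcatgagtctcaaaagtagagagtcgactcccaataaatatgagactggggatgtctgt
Tnf (GRCr8, chr20:3626435-3626684, plus strand): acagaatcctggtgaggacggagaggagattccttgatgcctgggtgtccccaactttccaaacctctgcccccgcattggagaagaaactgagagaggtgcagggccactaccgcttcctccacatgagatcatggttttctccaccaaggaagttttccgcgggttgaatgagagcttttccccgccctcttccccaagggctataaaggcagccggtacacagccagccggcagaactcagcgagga

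In Cxcl1 and Cxcl2, each run of capitals holds 2 overlapping matches, from -84 to -74 in Cxcl1 and from -74 to -64 in Cxcl2, counted back from the start. In Il6 the match lies from -68 to -59. The Il6 window also holds the cyclic AMP response element from -162 to -155 and the C/EBP motif from -152 to -145, which were found in 1.59% and 9.22% of all promoters. The AP-1 motif was found before Ccl7 alone, and in 6.34% of all promoters. TATAAA was found before Il1rn, Il1b, Ccl7 and Tnf, and in 12.9% of all promoters. Neither Tnf nor Il1rn, the detected genes with an entry, held the NF-kB consensus in this window. Il1b, which was well above background on no array, did not hold it either. A match is a description of letters, not a site of binding.

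Of 95 genes of the same pathways with a probe, 15 were well above background on all 4 arrays (15.8%) and 60 on none. Among other chemokines 2 of 22 were detected. These were Ccl6, at 0.05 ± 0.05, and Ccl9, at -0.26 ± 0.19 (SD, n = 4), both CC chemokines of rodents. Ccl6 levels were -0.0085, 0.07, 0.12 and 0.04 in replicates 1 to 4, and those of Ccl9 were -0.53, -0.21, -0.21 and -0.10. Ccl5 and Ccl11, which encode attractants of lymphocytes and of eosinophils, failed the call on every array. Of other cytokines, 3 of 21 were detected. Il1a, which encodes interleukin 1 alpha, lay at -3.15 ± 0.41, the B cell factor gene Tnfsf13 at -1.18 ± 0.23 and the migration inhibitory factor gene Mif at 2.44 ± 0.13 (SD, n = 4). Il10 and Il12a were called on no array.

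Of the 13 receptor genes reported, 0 were detected on all arrays, and 3 were called on 1 to 3 arrays. Ccr1 and Ccr2, whose products bind Ccl3 and Ccl2, were called on no array. Of the signalling adaptors and kinases, 4 of 15 were detected: the adaptor of Toll-like and interleukin 1 receptors Myd88 at -0.71 ± 0.14, the adaptor of the tumour necrosis factor receptor Tradd at -2.31 ± 0.30, and the p38 pathway kinases Mapk14 at -2.65 ± 0.42 and Mapkapk2 at -2.04 ± 0.26 (SD, n = 4). Irak2 and Traf2 were called on no array.

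Among transcription factors and their inhibitors, 4 of 9 were detected. Nfkbia, an NF-kB target that encodes its inhibitor, lay at -2.33 ± 0.27 and Cebpb, a C/EBP factor, at 0.04 ± 0.21 (SD, n = 4). Jun, an AP-1 subunit, lay at -3.04 ± 0.16 from 1 of 2 probes, the other being called on no array, and Spi1 at -3.14 ± 0.73 (SD, n = 4). Nfkb1 and Fos were called on no array. None of 7 genes for cytokine processing and release was detected on all arrays, and Casp1, which encodes caspase 1, and Adam17, the protease that sheds tumour necrosis factor, were called on no array. Of genes that act on the decay of cytokine transcripts, 2 of 8 were detected. Zfp36l2, of the family that binds AU-rich elements, had levels of -2.50, -1.79, -1.88 and -0.54 from 1 of 3 probes, and Elavl1, which encodes the stabilising protein HuR, had -0.88, -0.97, -0.87 and -1.44. Zfp36 and Zfp36l1 were called on no array.

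**Figure D5:**
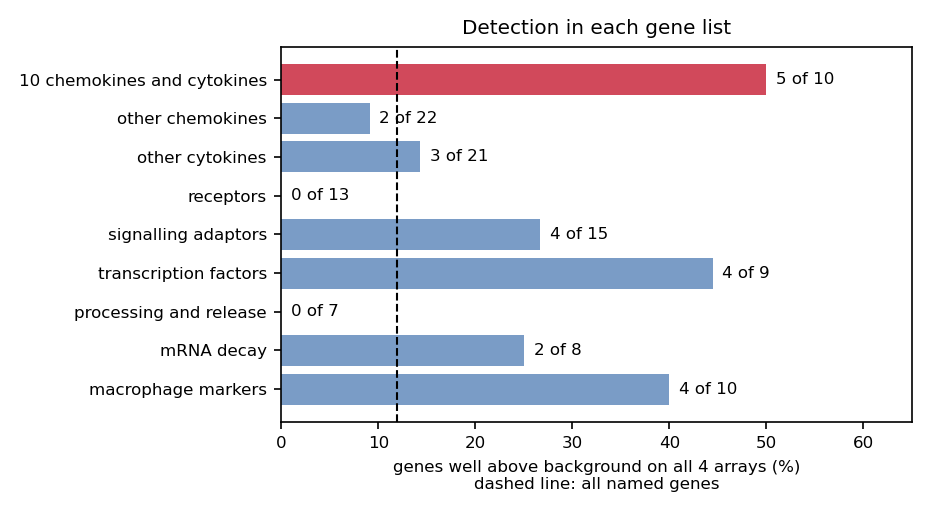
Percent of the genes with a probe in each list that passed the call on all 4 arrays, with the counts beside the bars; the dashed line marks the 11.9% of all named genes. The 10 chemokines and cytokines stand at 5 of 10, other chemokines at 2 of 22 and receptors at 0 of 13.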

How the data were processed

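Cy3-labelled RNA (100 ng, integrity over 7.5) was hybridised to 1-colour Agilent arrays, per the labels' protocols. The deposited values are spot intensity on a linear scale, which per the submitters' processing notes were made by version 11.0.1.1 of Agilent Feature Extraction. The processed signal is background-subtracted and not scaled between arrays, per the file headers. Control spots and spots flagged as non-uniform or population outliers (546 to 1296 gene spots per array) were left out, and a probe's log2 signals were averaged over its spots. A probe counted as well above background on an array when over 50% of its usable spots carried that flag. As under 50% of probes did so on all arrays, the arrays were each scaled to the 75th percentile of those that did, 384, 281, 236 and 223. A gene took its brightest detected probe. RefSeq accessions named 21109 probes. Coordinates come from GRCr8, and the older build in the file headers was not used.

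The F test (limma version 3.58.1, run in R version 4.3.3, with a threshold of 0.05 after Benjamini-Hochberg adjustment) was tested on simulated data. Python version 3.11.15 did the rest. The 10 genes, the lists and the rules were chosen with earlier results of these data known. From each list the text names the first 4 detected genes and the first 2 on no array, and for Ccl2 the 3 genes nearest in pattern. A gene of the lists is not reported here. The number of arrays limits the precision. Alternatives were other calls, scalings, background correction, spot and probe rules, and leaving out each replicate.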

Additional observations from a re-analysis of the deposited data

Results flagged for a closer look

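In 3 of 32 sets of 4 levels, 1 array lay so far from the others that its gap to the nearest, as a share of the whole range, passed the 95% critical value for 4 samples. Chance alone gives about 1 in 20 independent sets of normal values. The sets here are not independent, since they hold Bsg, Osgep and Taok3, chosen for following Ccl2, and probes near background. The rate is therefore no yardstick for the count. Among the 11 chemokine and cytokine probes this held for the detected Tnf probe alone, whose level in replicate 1 was the highest, with a gap of 0.965 of the range. It rests on a single spot per array, and with normexp replicate 4 was the highest instead. The others were Spi1, highest in replicate 4 (0.904), and Elavl1, lowest in replicate 4 (0.837). Ccl2 was not among them, with a gap of 0.602, since replicate 3 also lay above replicates 1 and 2.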

How the results depend on the processing

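The count of 5 detected genes was the same, with the same genes, in all 8 alternatives. The share of all named genes ranged from 11.9% to 23.4% over them. Ccl2 and Il1rn passed the F test in all 10 of its alternatives, with adjusted p from 6.42e-23 to 1.34e-07 for Ccl2 and from 2.39e-22 to 4.62e-05 for Il1rn (limma). Ccl2 was highest in replicate 4 under every scaling, above the mean of the other arrays by 0.53 to 2.10. The least was with the percentile over all gene probes, which shifts the median detected gene of replicate 4 by -1.64, against -0.07 in the main setting. That setting gave a median SD of 0.644 for the 5 genes, no scaling 0.539 and normexp 0.170. Restricting the F test to probes well above background gave 528 calls in place of 1093. The deviation of replicate 4 turned negative with the percentile over all gene probes for Ccl3 (-1.20) and Ccl4 (-1.25), with no scaling (-0.035 and -0.080) and, for Ccl4, with quantile normalization (-0.11). For Tnf it turned positive with normexp (0.17), and its ratio to Il1rn turned negative with quantile normalization (-0.67) and ranged from -0.12 to 0.15 when 1 of replicates 1 to 3 was left out. Relative to the median detected gene, Ccl3 and Ccl4 stood 0.44 and 0.39 higher in replicate 4 in the main setting. The percentile over all gene probes and no scaling must give the same values, since they differ by 1 factor per array. With quantile normalization, where the values could differ, they were 0.75 and 0.29. With normexp, where they could differ too, they were 0.22 and 0.17. The cause of the changes for Tnf was not tested. Normexp used median spot signals and was chosen after seeing the data, as were the ratios to Il1rn. No paired analysis was possible because there is 1 group. For probes that failed the weaker test on every array, only a bound near the negative controls can be given. Ccl7, Cxcl2 and Il1b passed that test on some of their spots but failed the call on every array.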

Other observations

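Of the pathway genes outside the 10, 20 were well above background on 1 to 3 arrays. They are named after their values were seen. The receptor genes Tnfrsf1a and Cxcr1, the protease partner gene Rhbdf2 and the deadenylase complex gene Cnot1 were called on replicates 1, 2 and 3 and not on replicate 4. Ccl17, Cxcl9, Irak1, Irak4 and Nlrp3 were called on replicate 4 alone, 5 of the 20. Tnfrsf1b, Ripk1, Ikbkg and Rela were called on replicate 1 alone, 4 of the 20. Alone or with others, replicate 1 called 13 of the 20 and replicate 4 called 7. Among all probes, 6476 passed the call in replicate 4 and 5722 in replicate 1, against 4745 and 4252 in replicates 2 and 3. Shares of single-array calls over all named genes are not given here, so these counts do not set the lists apart. Outside these lists, the macrophage marker Marco, the epithelial marker Sftpb and the endothelial marker Cdh5 were also called on replicate 4 alone.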
